A study of Mus musculus with 13 samples.

Results

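The aorta of 88-week-old mice was compared between 2 genotypes of a FOXM1 transgenic line. The 6 aorta libraries were chosen by their titles, 4 from controls named Rosa26 and 2 from transgenic mice named FoxM1-dNdK, out of 13 libraries in the series; the other 7 are gastrocnemius. All mice were FVBxC57BL/6. The controls had the genotype GFP-FOXM1dNdK-/-Rosa26-rtTAtg/+ and the transgenic mice GFP-FOXM1dNdKtg/+Rosa26-rtTAtg/+, so both groups carried rtTA, the doxycycline-controlled transactivator, at the Rosa26 locus. The labels used here give no doxycycline treatment and no sex, and they do not say that the libraries came from separate animals, so a p-value here measures the spread between libraries only. RNA was measured with a targeted mouse panel that amplifies a short stretch of each gene, and reads were counted per gene. Levels are counts scaled to library size (CPM) after TMM scaling, which adjusts each library for its composition. Summed levels of gene lists, and values marked as before scaling, are CPM without TMM scaling. A level can be compared between libraries for the same gene, but not between genes.

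FOXM1 is a forkhead transcription factor that is made in dividing cells and drives genes of late S phase, G2 and mitosis. Most cells of an adult artery do not divide. The vessel wall holds smooth muscle cells around an endothelial lining, with fibroblasts and immune cells outside, and the thoracic aorta of the mouse lies in brown fat whose adipocytes burn lipid through the uncoupling protein Ucp1. RNA of a whole dissected aorta therefore mixes vessel, fat and resident immune cells, and fewer cells of a type cannot be told apart from less RNA per cell.

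The labelled tissue was checked against its markers. Transcripts of smooth muscle and of brown fat were both present in every library: Myh11, the smooth muscle myosin, lay between 71.9 and 103 CPM before scaling, Eln, which encodes elastin, between 29.6 and 60.6 CPM, and Ucp1 between 5530 and 10100 CPM. Tagln, another smooth muscle gene, had 1 read in 1 library and 0 in the other 5. Heart muscle RNA was present in 3 libraries. Myh6, the atrial and ventricular myosin of the mouse heart, stood at 911 CPM in Rosa26 1, 394 CPM in Rosa26 2 and 685 CPM in dNdK 2, against 2.13 CPM or less in the other 3. Both genotypes thus held libraries with and without it.

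The libraries held 3919526 to 12399087 reads assigned to genes, the fewest in Rosa26 4. Libraries Rosa26 3 and Rosa26 4 stood apart from the other 4. Over well-counted genes, meaning a mean of 20 CPM or more, the median absolute log2 difference between either of them and any of the other 4 libraries was 0.40 to 0.48, while the other 4 differed from each other by 0.21 to 0.31. Their shares of unmapped reads were 7.21% and 7.45%, against 4.62% to 5.62%. In this measure the controls Rosa26 1 and 2 lay closer to the dNdK libraries than to the controls Rosa26 3 and 4. Results are therefore given also without Rosa26 3 and 4 and without Rosa26 1 and 2.

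**Figure D1:**
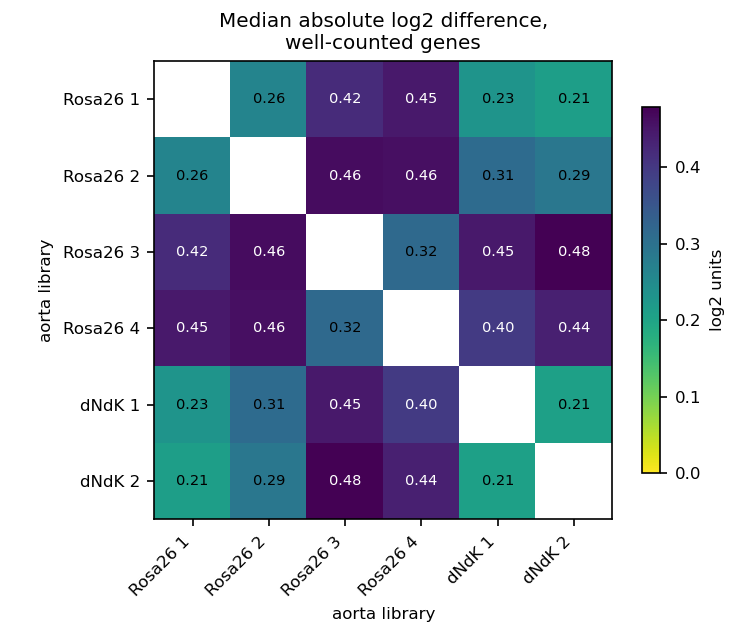
Median absolute log2 difference between each pair of aorta libraries over well-counted genes, in log2 units, with both axes listing the libraries. Rosa26 3 and 4 differ from the other libraries by 0.40 to 0.48, and the remaining pairs by 0.21 to 0.32.

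Foxm1 itself was near the limit of counting. The mouse gene was at 0.294, 1.78, 1.21 and 0.562 CPM in Rosa26 1 to 4, and at 0.248 and 0.496 CPM in dNdK 1 and 2. The groups overlapped, and 3 of the libraries held 3 reads or fewer. The log2 fold change of dNdK over Rosa26 was -1.38 with a standard error of 0.96 (edgeR adjusted p = 0.763, n = 4 and 2). Whether the panel's stretch of Foxm1 reads the transgene is not given in the sources used here, so this value does not check the genotype labels.

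1 gene of 11920 tested passed the test, Ube2ql1, which was higher in dNdK (0.00839% of genes called; edgeR quasi-likelihood test, Benjamini-Hochberg adjusted p under 0.05). No gene was called lower. DESeq2 called 13 genes and limma voom 1. The DESeq2 calls that are named below were Ube2ql1, Pnpla3, Slc25a34, Ptgds, Sycp3, Ptger3, Zfp729b, Top2a and Hjurp. At an unadjusted p under 0.05 there were 278 higher genes (2.33%) and 435 lower genes (3.65%). By estimate 45.8% of genes were higher and 54.2% lower, and among well-counted genes 49.8% and 50.2%. Every other gene named below had an edgeR adjusted p of 0.757 or more, so its values are a description of these 6 libraries.

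Ube2ql1 encodes a member of the ubiquitin-conjugating E2 family, enzymes that carry ubiquitin to a ligase. Its levels were 9.30, 9.73, 11.2 and 8.42 CPM in Rosa26 1 to 4, and 80.6 and 74.4 CPM in dNdK 1 and 2. The 4 controls lay close together, and the lower dNdK library stood 6.64-fold above the highest control. The group means were 9.67 ± 1.16 CPM (SD, n = 4) and 77.5 ± 4.38 CPM (SD, n = 2), a fold change of 7.97. The log2 fold change was 2.99 with a standard error of 0.22 (edgeR adjusted p = 0.00779), and both dNdK libraries showed it. It was 3.02 without Rosa26 3 and 4 (adjusted p = 0.00546) and 2.98 without Rosa26 1 and 2 (adjusted p = 0.0147). With 1 control left out the call was lost in 2 of 4 fits, at an edgeR adjusted p of 0.103 without Rosa26 1 and 0.0539 without Rosa26 2. Without dNdK 1 or dNdK 2 the adjusted p was 0.259 and 0.0898, but then 1 dNdK library is left, which is assumed to vary as the controls do. The log2 fold changes of these 4 fits were 2.94 to 3.06. The call was also missed for either strand alone (adjusted p = 0.316 and 0.841) and with all 13 libraries in 1 fit (0.287), where the estimates were 2.75, 3.21 and 3.00. Among the 3 libraries with heart RNA the log2 fold change was 2.97, and without them it was 3.02, each with 1 dNdK library. In gastrocnemius the gene was at a mean of 1.69 CPM in Rosa26 and 2.79 CPM in dNdK. The aorta fold change exceeded the muscle one by 2.25 log2 units with a standard error of 0.68, a difference with an edgeR adjusted p of 0.583.

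Reads of Rsl1 and Zfp729b, which like Ube2ql1 lie on chromosome 13, were present or absent library by library. The genes between them and Ube2ql1 are not shown here. Rsl1 (chr13:67173182-67183499) and Zfp729b (chr13:67589439-67609707), zinc finger genes named after their values were seen, had 22 and 30 reads and 25 and 37 reads in dNdK 1 and 2. The 4 aorta controls held 0, 2, 0 and 0 reads of Rsl1 and none of Zfp729b. In gastrocnemius the presence of both genes did not follow the genotype: 1 of 4 Rosa26 libraries (15 and 28 reads) and 1 of 3 dNdK libraries (18 and 16 reads) held them, and the other 5 held none. Ube2ql1 was at 2.55 and 5.70 CPM before scaling in those 2 muscle libraries and at 0.807 to 2.63 CPM in the other 5, so one of them stood above the rest and one did not. The mice are of a mixed FVBxC57BL/6 background; the part of the animals' chromosome 13 in the Ube2ql1 result was not tested.

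The bases just before the start of Ube2ql1 are shown because it was the gene that passed the test. The gene lies at chr13:69702832-69739897 on the minus strand of GRCm38.p6, and the 250 bases before its annotated start are at chr13:69739898-69740147, from RefSeq.
Ube2ql1: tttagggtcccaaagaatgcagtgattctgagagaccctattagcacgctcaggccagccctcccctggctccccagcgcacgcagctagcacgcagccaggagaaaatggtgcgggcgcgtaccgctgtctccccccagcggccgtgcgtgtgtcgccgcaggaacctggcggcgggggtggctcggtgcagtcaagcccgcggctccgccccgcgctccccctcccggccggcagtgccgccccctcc
Both strands were searched for the forkhead letters TGTTTAC, the cell cycle homology letters TTTGAA and the CCAAT box. None of them was in this window. Among 32851 promoter windows of the same length, 3.17% held the forkhead letters, 16% the cell cycle letters and 33.8% a CCAAT box.

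The ubiquitin-conjugating enzymes, Ube2ql1 included, were looked at as a group. Of 26 listed genes 19 were tested, 12 with a higher and 7 with a lower estimate, and their median log2 fold change was 0.08, against -0.05 over all genes tested. Of the 16 that were well counted, 5 had groups that did not overlap with dNdK higher, Ube2ql1 among them, and 1 with dNdK lower (11.4% and 7.04% over all well-counted genes). Ube2e1 was at 116, 119, 67.3 and 119 CPM in the controls and at 147 and 185 CPM in dNdK. Ube2b was at 211, 222, 67.3 and 111 CPM against 224 and 259 CPM. In both genes Rosa26 3 was the lowest control, and the margin over the highest control was small for Ube2b. Both log2 fold changes were 0.66, against 2.99 for Ube2ql1.

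Of 6166 well-counted genes, 706 had both dNdK libraries above all 4 controls (11.4%) and 434 had both below (7.04%). Over all genes tested the shares were 9.14% and 8.2%. The balance depended on the scaling: with library size alone, 350 were higher and 913 lower. Most margins were narrow. Among the higher genes the lowest dNdK library exceeded the highest control by a median of 1.09-fold, and 15 of the 706 by 1.5-fold or more. Among the lower genes the median was also 1.09-fold, with 13 of 434 at 1.5-fold or more. The median log2 fold changes were 0.51 and -0.55. Just outside the level required, Nop9 (mean 19.97 CPM) had a log2 fold change of 0.32, and just inside it Slc35c1 (mean 20.02 CPM) had -0.47.

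Genes that divide the controls were counted in both sets without overlap. Of the 706 higher genes, 69 (9.77%) were at least 2-fold higher in Rosa26 1 and 2 than in Rosa26 3 and 4, and 0 were the other way around. Over all well-counted genes these shares were 6.73% and 5.66%. Among the 434 lower genes the counts were 12 (2.76%) and 17 (3.92%). The no-overlap rule uses the same control values, so these shares are not independent of it. The part of the divided controls in the result was not tested.

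**Figure D2:**
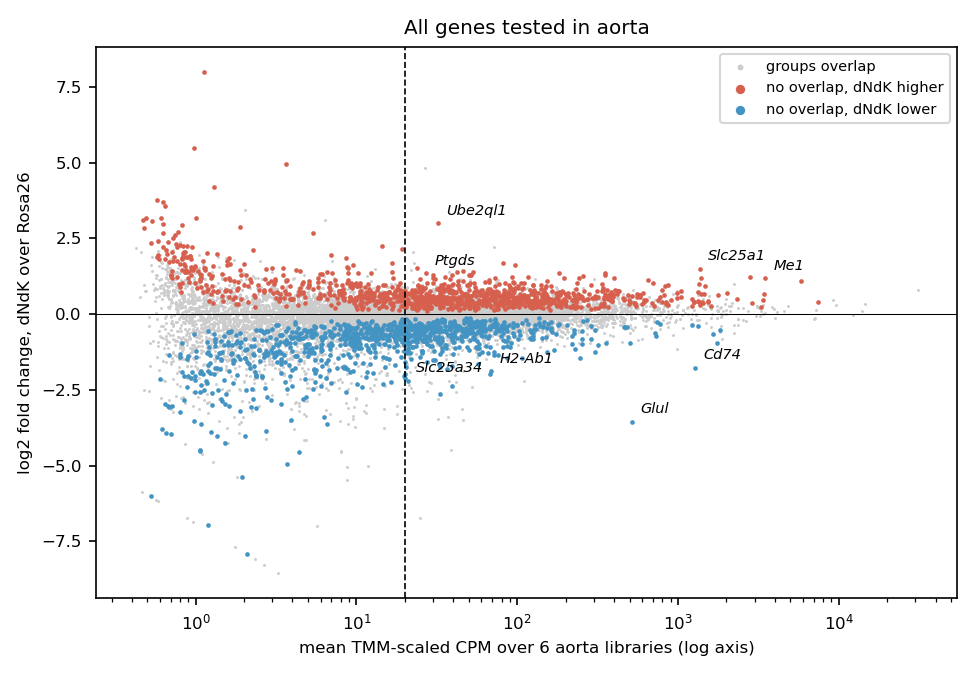
Log2 fold change of dNdK over Rosa26 against mean TMM-scaled CPM (log axis) for the 11920 genes tested; coloured points are genes whose 4 Rosa26 and 2 dNdK libraries do not overlap, and the dashed line marks 20 CPM. Ube2ql1 stands above the other genes to the right of the line whose groups do not overlap, and Glul below them.

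Of the 15 largest differences with dNdK higher, several had controls that did not divide into Rosa26 1 and 2 against Rosa26 3 and 4. Genes without an established name, such as Gm and Rik names, were left out of the 15. Sycp3, a component of the synaptonemal complex that pairs chromosomes in meiosis, was at 69.5, 36.6, 27.5 and 52.2 CPM in the controls and at 124 and 177 CPM in dNdK. Its log2 fold change was 1.70 with a standard error of 0.36. Ptger3, the EP3 receptor for prostaglandin E2, was at 69.7, 58.2, 33.8 and 67.4 CPM against 127 and 225 CPM, a log2 fold change of 1.62 (standard error 0.34). Neither gene's groups overlapped, and Rosa26 3 was the lowest control for both. Ncan, which encodes the proteoglycan neurocan, was at 19.6, 13.7, 7.94 and 17.1 CPM against 37.7 and 46.6 CPM. Without Rosa26 3 and 4 the log2 fold changes of Sycp3, Ptger3 and Ncan were 1.51, 1.46 and 1.34, and without Rosa26 1 and 2 they were 1.96, 1.84 and 1.83. All 3 genes kept their direction in both settings, which follows from choosing genes whose groups do not overlap.

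Ptgds, the synthase of prostaglandin D2, had narrow groups. It was at 21.5, 19.3, 15.8 and 14.3 CPM in Rosa26 1 to 4 and at 43.3 and 48.1 CPM in dNdK 1 and 2, means of 17.7 ± 3.29 CPM (SD, n = 4) and 45.7 ± 3.37 CPM (SD, n = 2). The lower dNdK library was 2.01-fold above the highest control. Its log2 fold change was 1.36 with a standard error of 0.25. It was called by edgeR without Rosa26 3 and 4 (1.16, adjusted p = 0.0499) and without Rosa26 1 and 2 (1.62, adjusted p = 0.033). Those 2 settings share both dNdK libraries; 4 genes were called in both with the same direction, namely Ptgds, Ube2ql1, Rsl1 and Zfp729b. Both zinc finger genes belong to families of near-identical copies between which reads could be divided. Of the 18 listed prostaglandin genes 15 were tested, 3 higher and 12 lower by estimate, with a median of -0.34. Ptger4, the EP4 receptor, was lower, at 14.5, 24.4, 28.8 and 39.3 CPM against 12.7 and 9.22 CPM.

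For other genes with large differences, the low controls were Rosa26 3 and 4. Coa6, an assembly factor of cytochrome c oxidase, stood at 64.2 and 56.4 CPM in Rosa26 1 and 2 but only at 4.11 and 10.1 CPM in Rosa26 3 and 4. The dNdK libraries had 75.0 and 91.4 CPM. Mrpl50, a protein of the mitochondrial ribosome, was at 210, 189, 29.1 and 53.1 CPM against 272 and 341 CPM. Ampd3, an AMP deaminase, was at 61.7, 55.7, 10.7 and 10.4 CPM against 72.4 and 97.7 CPM. In these 3 genes Rosa26 1 and 2 lay much nearer to the dNdK libraries than to the other controls. Without Rosa26 3 and 4 the log2 fold changes of Coa6, Mrpl50 and Ampd3 shrank from 1.29, 1.34 and 1.28 to 0.47, 0.62 and 0.54. Acsl3, which activates fatty acids, followed the same order, with 49.6, 38.6, 13.1 and 8.14 CPM against 69.8 and 74.8 CPM. Slc15a5 had no reads in Rosa26 4, where 3 reads would be 0.765 CPM, and was at 44.0, 61.0 and 12.0 CPM in the other controls and 72.4 and 85.8 CPM in dNdK.

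**Figure D3:**
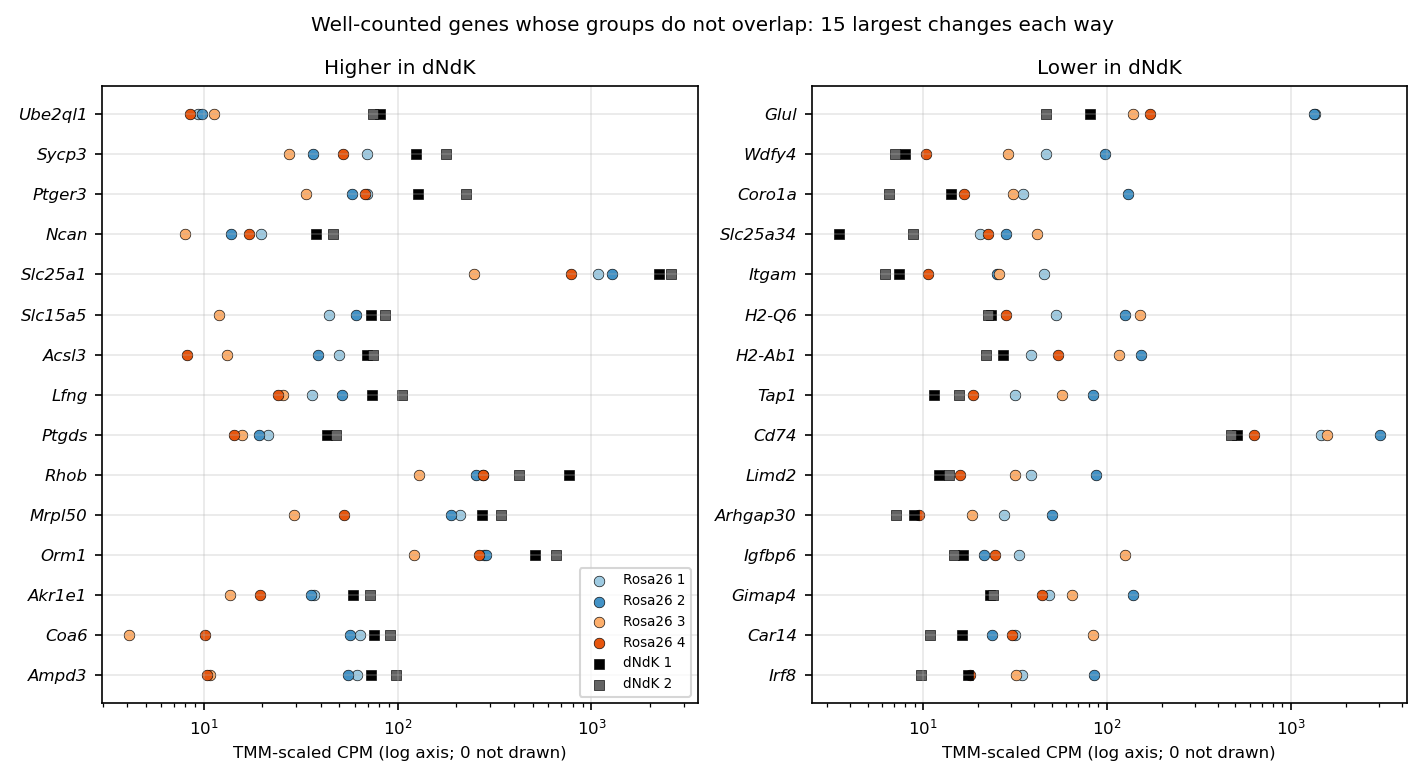
TMM-scaled CPM (log axis) in each of the 6 aorta libraries for 15 well-counted genes in each direction. They had the largest log2 fold changes among genes with an established name whose groups do not overlap. Circles are Rosa26 libraries and squares dNdK libraries. Ube2ql1 and Ptgds have tight control groups, while Coa6, Ampd3 and Mrpl50 have 2 low controls, Rosa26 3 and 4.

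Most fat-making genes had a higher estimate in dNdK. Lipogenesis makes fatty acids and triglycerides from citrate that leaves the mitochondrion. Of 20 listed genes 19 were tested, of which 17 had a higher estimate, and 17 were well counted. Of those 17, 6 had groups that did not overlap with dNdK higher and 0 with dNdK lower, where 11.4% and 7.04% of all well-counted genes did. The median log2 fold change was 0.53 over those tested, and it was 0.65 both without Rosa26 3 and 4 and without Rosa26 1 and 2.

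Me1, the malic enzyme that supplies NADPH for fatty acid synthesis, was at 3620, 2150, 1370 and 2620 CPM in the controls and at 5910 and 5260 CPM in dNdK. Its log2 fold change was 1.20 with a standard error of 0.35. Pnpla3, a lipid droplet protein, was at 489, 538, 421 and 424 CPM against 926 and 1100 CPM. The controls of Pnpla3 lay within a narrow range, with means of 467.7 ± 56.0 CPM (SD, n = 4) and 1012 ± 121 CPM (SD, n = 2), and its log2 fold change was 1.11 with a standard error of 0.22. It was 0.98 without Rosa26 3 and 4, and 1.28 without Rosa26 1 and 2. Agpat2, an acyltransferase of triglyceride synthesis, was at 2830, 2930, 1020 and 965 CPM against 3870 and 5200 CPM, again with Rosa26 3 and 4 low. Slc25a1, which is not in the lipogenesis list, is the carrier that exports citrate from mitochondria. Its levels were 1080, 1280, 249 and 787 CPM against 2230 and 2560 CPM. Scd1, the stearoyl-CoA desaturase, did overlap: before scaling it was at 21400, 23500, 10200 and 44200 CPM in the controls and at 34900 and 46500 CPM in dNdK.

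Most cholesterol synthesis genes also had a higher estimate. Of 18 listed genes 14 were tested, 11 with a higher estimate, and the median was 0.48. Of 11 well-counted members, 5 did not overlap with dNdK higher and 1 with dNdK lower (11.4% and 7.04% over all well-counted genes). Sqle, squalene epoxidase, was at 66.3, 69.5, 34.9 and 54.2 CPM against 91.4 and 120 CPM. Dhcr7, which makes the last step to cholesterol, was at 99.3, 91.3, 51.9 and 101 CPM against 133 and 178 CPM. In both genes Rosa26 3 was the lowest control. The median was 0.36 without Rosa26 3 and 4 and 0.78 without Rosa26 1 and 2.

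Genes of the respiratory chain, which passes electrons to oxygen in mitochondria, differed by less. Of 28 tested, all well counted, 23 had a higher estimate, and 9 did not overlap with dNdK higher and 0 with dNdK lower (11.4% and 7.04% over all well-counted genes). Their median was 0.23. Sdhc, a subunit of complex II, was at 1010, 756, 850 and 965 CPM against 1280 and 1390 CPM. Among the listed genes without overlap the largest log2 fold change was 0.74, for Cox6c. Uqcrb, a subunit of complex III outside the list, was named after its margin was seen. It was at 1210, 1260, 567 and 846 CPM against 1960 and 2460 CPM, a log2 fold change of 1.18. In the citric acid cycle 14 of 16 tested genes had a higher estimate, 4 of them without overlap (11.4% over all well-counted genes), and the median was 0.21. Idh3a, a subunit of isocitrate dehydrogenase, was at 1410, 1110, 925 and 1410 CPM against 1980 and 1870 CPM.

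Glucose and antioxidant genes were mixed. Slc2a4, the insulin-responsive glucose transporter GLUT4, was at 355, 275, 197 and 237 CPM in the controls and at 478 and 496 CPM in dNdK, a log2 fold change of 0.87 with a standard error of 0.27. Angptl8, a feeding-induced regulator of lipoprotein lipase, was at 43.7, 75.9, 80.9 and 111 CPM against 121 and 172 CPM. The insulin signalling list as a whole had a median of -0.20, with 8 of 22 tested genes higher. Sod1 and Cat, which remove superoxide and hydrogen peroxide, were both above all controls, Sod1 at 1600, 1580, 378 and 957 CPM against 2150 and 2120 CPM. Of the 16 well-counted antioxidant genes, 3 did not overlap with dNdK higher and 2 with dNdK lower, near the 11.4% and 7.04% over all well-counted genes.

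Brown fat markers overlapped between the groups as a list. Of 11 brown adipocyte markers tested 6 had a higher and 5 a lower estimate, with a median of 0.14, and the summed level of the list was 18210, 15960, 20900 and 16590 CPM in the controls against 18340 and 18140 CPM in dNdK. Before TMM scaling, the dNdK sums thus lay inside the range of the controls. Sums after TMM scaling are not given here. Cox8b, a brown fat subunit of cytochrome c oxidase, was at 7450, 6360, 6480 and 6410 CPM against 8740 and 9020 CPM. Slc25a34, a mitochondrial carrier, was lower, at 20.4, 28.3, 41.8 and 22.7 CPM against 3.48 and 8.82 CPM. Its log2 fold change was -2.20 with a standard error of 0.48. The lowest control was 2.31-fold above the higher dNdK library, and the value was -1.97 without Rosa26 3 and 4 and -2.37 without Rosa26 1 and 2. Pck1, the enzyme that makes glycerol for triglycerides in fat, was at 1360, 1300, 2300 and 3410 CPM against 938 and 1230 CPM.

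Among the well-counted lower genes without overlap Glul, glutamine synthetase, had the largest log2 fold change, and its controls lay at 2 levels. Rosa26 1 and 2 had 1360 and 1330 CPM, Rosa26 3 and 4 had 138 and 171 CPM, and the dNdK libraries had 80.7 and 46.8 CPM. All controls lay above both dNdK libraries, yet Rosa26 3 and 4 were nearer to dNdK than to the other controls. The log2 fold change was -3.56 with a standard error of 1.10. It was -4.40 without Rosa26 3 and 4 (edgeR adjusted p = 0.00546) and -1.26 without Rosa26 1 and 2 (adjusted p = 0.0761). Heart RNA was high in Rosa26 1, Rosa26 2 and dNdK 2. Among these 3 libraries the log2 fold change of Glul was -4.84, and without them -0.93, each with 1 dNdK library. The part of heart RNA in the Glul values was not tested.

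Most genes of antigen presentation had a lower estimate in dNdK. MHC class II molecules display peptides on dendritic cells, macrophages and B cells. Of 10 listed class II genes 8 were tested, all with a lower estimate, at a median of -1.80, and 2 of 3 well-counted ones did not overlap (7.04% over all well-counted genes). Cd74, the invariant chain of class II, was at 1460, 3050, 1570 and 629 CPM in the controls and at 510 and 473 CPM in dNdK. H2-Ab1, a class II beta chain, was at 38.7, 154, 117 and 53.9 CPM against 27.2 and 21.9 CPM. The controls spread widely in both genes, with Rosa26 2 highest. The log2 fold change of Cd74 was -1.77 with a standard error of 0.56, and it was -2.20 without Rosa26 3 and 4 and -1.14 without Rosa26 1 and 2.

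Class I genes, which present peptides from inside every cell, showed 8 of 10 tested with a lower estimate, a median of -0.41, and 4 without overlap (7.04% over all well-counted genes). Tap1 encodes a subunit of the peptide transporter that loads class I molecules, and it was at 31.8, 84.4, 57.0 and 18.8 CPM against 11.5 and 15.7 CPM. Psmb9, a subunit of the immunoproteasome, which makes the peptides, was at 18.3, 76.6, 40.0 and 23.0 CPM against 13.8 and 14.3 CPM. Rosa26 2 was again the highest control for both. Psmb8, its partner subunit, was at 83.7, 153, 122 and 79.2 CPM against 65.3 and 39.3 CPM. H2-Q6, which is not in the list, was at 53.2, 125, 152 and 28.4 CPM against 23.3 and 22.7 CPM. It has near-identical neighbours between which its reads could be divided. Psme1, an activator of the proteasome and also outside the list, went the other way. It was at 211, 152, 150 and 184 CPM against 369 and 343 CPM. The log2 fold change of Psme1 was 1.03 with a standard error of 0.23.

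Tap1 and Psmb9 start head to head on chromosome 17, and the bases between them are shown because both genes had lower values in dNdK. The 225 bases are at chr17:34187331-34187555 on the plus strand of GRCm38.p6, from RefSeq, and end just before the Tap1 start. Capitals mark a CCAAT box.
Tap1 and Psmb9: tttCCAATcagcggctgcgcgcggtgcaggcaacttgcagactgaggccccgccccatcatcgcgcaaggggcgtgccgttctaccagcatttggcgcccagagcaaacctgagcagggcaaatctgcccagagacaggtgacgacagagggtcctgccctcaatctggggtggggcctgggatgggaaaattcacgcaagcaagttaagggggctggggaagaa
The box begins 222 bases before the start of Tap1, and 33.8% of all promoter windows hold these letters on either strand. The interferon-stimulated response element (in 2.98% of windows), the gamma-activated site (7.02%) and the NF-kB site (3.33%) were searched on both strands, and their letters were not in this interval.

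Several of the largest lower differences were in genes known from leukocytes; they were chosen because their groups do not overlap, and summed lymphocyte markers did overlap between the genotypes. Itgam, the integrin CD11b of myeloid cells, was at 45.5, 25.3, 26 and 10.7 CPM in the controls and at 7.45 and 6.25 CPM in dNdK. Coro1a, an actin-binding protein of leukocytes, was at 34.8, 131, 31.0 and 16.8 CPM against 14.2 and 6.54 CPM. Irf8, a transcription factor of myeloid and B cells, was at 34.4, 84.6, 32.2 and 18.0 CPM against 17.6 and 9.82 CPM. In all 3 genes Rosa26 4 was the lowest control and stood within 2-fold of dNdK 1. Wdfy4, needed for cross-presentation by dendritic cells, was at 46.5, 97.8, 29.1 and 10.4 CPM against 7.94 and 7.04 CPM. Gimap4, a GTPase of lymphocytes, was at 48.7, 138, 64.8 and 44.6 CPM against 23.2 and 24 CPM.

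Of 11 macrophage markers tested 10 had a lower estimate, with a median of -0.74, and 4 of 5 well-counted ones did not overlap (7.04% over all well-counted genes). Lyz2, the macrophage lysozyme, was at 549, 499, 399 and 246 CPM against 242 and 193 CPM. Before TMM scaling, the summed macrophage markers were 782.8, 783.8, 653.3 and 351.6 CPM in the controls against 362.8 and 281.9 CPM. On that scale Rosa26 4 lay within the dNdK range. The T and NK cell sums were 142.7, 247.4, 52.5 and 12.2 CPM against 29.7 and 22.5 CPM, and the B and plasma cell sums were 255, 696.8, 278.9 and 15.8 CPM against 94.2 and 38.9 CPM. Both lymphocyte lists were lowest in Rosa26 4, a control, and highest in Rosa26 2. Ptprc, the pan-leukocyte marker CD45, was at 53.7, 150, 10.0 and 5.61 CPM before scaling in the controls and at 11.9 and 8.97 CPM in dNdK. All 11 tested T and NK markers and all 9 tested B and plasma cell markers had a lower estimate, at medians of -2.14 and -3.30; without Rosa26 1 and 2 the medians were -0.22 and -1. The part of leukocyte content in the antigen presentation and leukocyte genes was not tested.

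**Figure D4:**
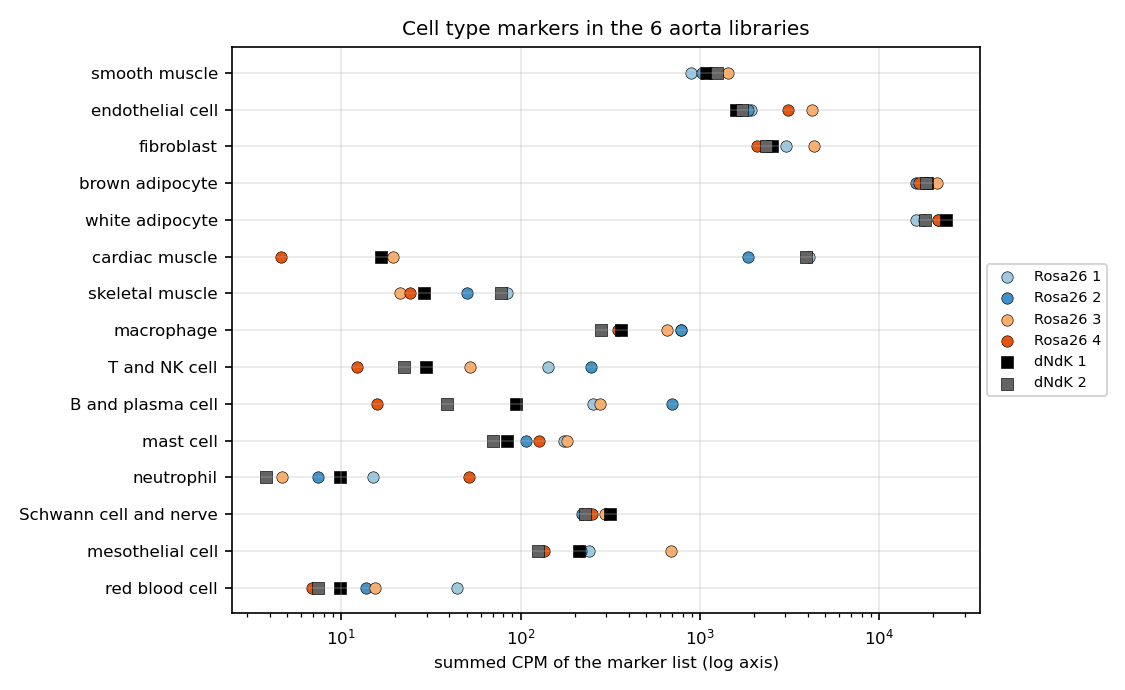
Summed CPM of each cell type marker list before TMM scaling (log axis) in the 6 aorta libraries. Circles are Rosa26 and squares dNdK. Cardiac muscle markers split the libraries into 3 high and 3 low across both genotypes, and the lymphocyte sums of dNdK lie between Rosa26 4 and the other controls.

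Endothelial markers depended on which controls were used. Of 14 tested, all well counted, 13 had a lower estimate and 4 did not overlap with dNdK lower (7.04% over all well-counted genes), at a median of -0.56. Icam2, an endothelial adhesion molecule, was at 38.4, 30.4, 63.9 and 44.6 CPM against 14.8 and 25.9 CPM. Vwf, von Willebrand factor, was at 68.5, 49.8, 141 and 70.5 CPM against 31.0 and 47.2 CPM. Kdr, the main VEGF receptor, was at 202, 172, 333 and 299 CPM against 143 and 160 CPM. Rosa26 3 was the highest control in all 3. The summed endothelial markers were 1925, 1851, 4222 and 3087 CPM in the controls against 1599 and 1724 CPM, and the median of the list was -0.87 without Rosa26 1 and 2 but 0.00 without Rosa26 3 and 4.

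Smooth muscle markers did not separate the genotypes as a list, with 5 of 12 tested higher, a median of -0.06, and sums of 893.1, 1024, 1439 and 1131 CPM against 1081 and 1251 CPM. Myh11 was at 68.5, 85.5, 85.2 and 80.0 CPM after scaling against 103 and 109 CPM. Matrix genes were mixed. Fn1, fibronectin, was at 158, 153, 137 and 108 CPM against 82.7 and 79.8 CPM, while Lox, which crosslinks collagen and elastin, was at 50.5, 48.0, 48.9 and 56.4 CPM against 78.6 and 80.3 CPM. Of 24 collagen and elastic matrix genes tested 18 had a lower estimate, with a median of -0.25, and of 21 well-counted ones 3 did not overlap with dNdK lower and 1 with dNdK higher, near the 7.04% and 11.4% over all well-counted genes.

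Several single genes had a margin of at least 1.5-fold between the groups; these were named after their values were seen. Yap1, the coactivator of the Hippo pathway, was at 79.8, 81.8, 67.3 and 75.3 CPM in the controls and at 143 and 134 CPM in dNdK, a log2 fold change of 0.87 with a standard error of 0.20. Ccn2, connective tissue growth factor, was at 133, 92.8, 217 and 103 CPM against 45.8 and 53.7 CPM, a log2 fold change of -1.46 with a standard error of 0.38. Ccn2 is a known target of Yap1, and the pair lay in opposite directions. For both genes the direction was the same without Rosa26 3 and 4 and without Rosa26 1 and 2. This follows from choosing genes whose groups do not overlap.

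Others with such a margin were lower. Tmem173 encodes STING, the adaptor that senses cyclic dinucleotides, and it was at 29.9, 45, 52.9 and 38.8 CPM against 15.4 and 17.9 CPM. Cd274, the checkpoint ligand PD-L1, was at 47.3, 65.0, 78.8 and 54.2 CPM against 22.8 and 31.4 CPM. Pde4b, a phosphodiesterase that breaks down cyclic AMP, was at 47.6, 56.6, 43.7 and 50.5 CPM against 12.8 and 27.4 CPM. The controls of Pde4b lay within a narrow range, with a mean of 49.6 ± 5.45 CPM (SD, n = 4). Ccnd2, a G1 cyclin, was at 36.0, 49.3, 63.6 and 50.8 CPM against 22.2 and 24 CPM. Rftn1, a lipid raft protein, was at 66.3, 57.1, 85.2 and 75.0 CPM against 31.4 and 33.2 CPM, and Plekho2 was at 73.0, 88.8, 58.1 and 88.7 CPM against 37.4 and 37.2 CPM.

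Cell cycle genes were counted too low in this tissue to weigh one by one. Of 30 listed FOXM1 and G2/M targets 26 were tested, 25 with a lower and 1 with a higher estimate, at a median of -1.39; none was well counted, and edgeR called none with all 6 libraries. DESeq2 called 13 of 11920 genes tested, and 1 of the 13 was on this list. It was Top2a, which untangles DNA in mitosis, at a log2 fold change of -3.37 (DESeq2 adjusted p = 0.0249). Without Rosa26 3 and 4 edgeR called 160 of 11603 genes tested lower. From the list 5 were among them, Top2a, Birc5, Ccna2, Mki67 and Ube2c, at edgeR adjusted p of 0.033 to 0.0495. Hjurp, a centromere protein outside the list, was called higher by DESeq2, at 2.29 (adjusted p = 0.025). The median was -1.96 without Rosa26 3 and 4 and -0.56 without Rosa26 1 and 2. The summed level of the list was 140.1, 218, 111.3 and 40.3 CPM in the controls against 50.8 and 45.5 CPM in dNdK, so Rosa26 4 lay below both dNdK libraries. The summed T and NK cell markers had the same 3 controls above and the same 1 below, at 142.7, 247.4, 52.5 and 12.2 CPM against 29.7 and 22.5 CPM, with Rosa26 2 highest in both lists; their part in the cell cycle values was not tested. All 18 tested DNA replication genes had a lower estimate, with a median of -0.83. Only 2 of them were well counted, with a median of -0.22 and groups that overlapped. The median of all tested members was -1.06 without Rosa26 3 and 4 and -0.35 without Rosa26 1 and 2. Cdkn1a, the inhibitor p21, was at 66.4, 53.6, 50.9 and 62.1 CPM against 118 and 76.5 CPM. The list of p53 targets and cell cycle inhibitors had a median of 0.00, with 8 of 16 tested genes higher.

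**Figure D5:**
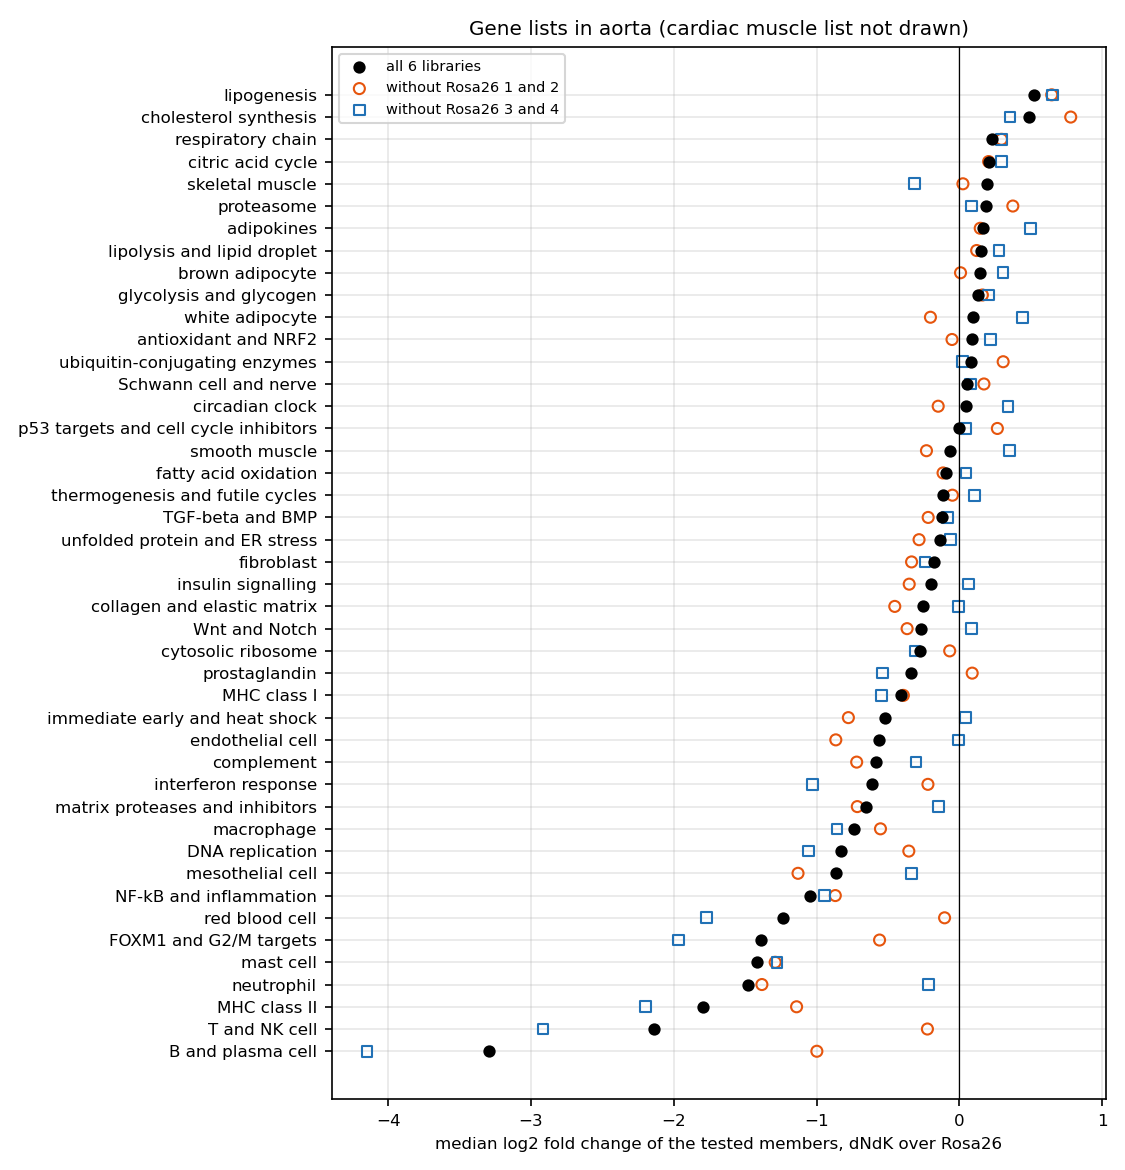
Median log2 fold change of dNdK over Rosa26 for each gene list, over its tested members, with all 6 libraries (filled), without Rosa26 1 and 2 (open circles) and without Rosa26 3 and 4 (open squares). Lipogenesis lies at 0.53 to 0.65 in the 3 settings, while the endothelial list lies at -0.87 to 0.00 and the B and plasma cell list at -4.15 to -1.

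The genotype difference was set beside gastrocnemius, where the same contrast had 4 and 3 libraries. Aorta and muscle libraries were fitted as independent; some may come from the same mice, which the labels do not say, so the errors and p-values of the tissue difference assume separate animals. Of 12318 genes tested for a difference between the tissues, 0 were called by edgeR; 1044 (8.48%) had an unadjusted p under 0.05, and DESeq2 called 6. No gene passed in gastrocnemius alone. Slc2a4 differed by 1.10 log2 units between the tissues with a standard error of 0.33, and Epm2aip1 by 1.33 with a standard error of 0.30, both at an edgeR adjusted p of 0.583. Epm2aip1 was at 31.5, 23.9, 22.9 and 24.1 CPM in control aorta and 50.4 and 49.1 CPM in dNdK aorta, but at means of 52.2 and 40.9 CPM in Rosa26 and dNdK muscle. For Pnpla3 the muscle libraries of dNdK ranged from 6.27 to 199 CPM.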

How the data were processed

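RNA from snap-frozen tissue was read with an AmpliSeq mouse panel, per the labels. The deposited values are read counts per gene, made by the authors with STAR 2.5.2b on mm10 (GRCm38.p6), per the submitters' processing notes. Reads on either strand were used, so overlapping and antisense genes cannot be told apart. Lines that name no gene were left out. The files held 19838 genes, none on X, Y or the mitochondrial genome, which were not analysed here. With edgeR 4.0.16 in R 4.3.3, genes were filtered by filterByExpr (minimum count 10), scaled by TMM and tested by quasi-likelihood with Benjamini-Hochberg adjustment at 0.05, using the 6 aorta libraries without covariates; the tissue difference used all 13. The test was checked on simulated data. DESeq2 1.42.0, limma 3.58.1 voom, other scaling, filters, strands, a replicate block and left-out libraries were alternatives; leaving out Rosa26 3 and 4 was added after seeing the data. A standard error is the size of the log2 fold change divided by the root of the F statistic. Gene lists are described by counts and medians, without a test.

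Named genes are Foxm1, called genes, the 15 largest differences each way among well-counted genes whose groups do not overlap, and up to 3 such members per list; where a list had none, up to 2 well-counted members of smallest p. Genes with a margin of 1.5-fold or more were added after seeing the data. Genes without an established name, such as Gm and Rik names, were left out of the largest differences, the list members without overlap and the margins. The members and the 45 lists were chosen with earlier results of these data known. Total counts of 3919526 to 12399087 per aorta library set the precision: 3 reads correspond to 0.242 to 0.765 CPM, a limit for counting error only. Coordinates are from RefSeq on GRCm38.p6; 19825 genes (99.9%) matched.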

Additional observations from a re-analysis of the deposited data

Results flagged for a closer look

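Among 124 named genes, 14 had 1 control aorta library farther from the other 3 than Dixon's 95% critical value for 4 samples allows; chance does this in about 1 group in 20, and the genes share libraries. In Rosa26 3 the low values were Rhob at 129 CPM, Orm1 at 121 CPM, Cox6c at 16.6 CPM and Ube2e1 at 67.3 CPM. The high values in Rosa26 3 were Igfbp6 at 126 CPM, Car14 at 83.7 CPM, Metrnl at 40.8 CPM, Stk10 at 55.3 CPM and the mesothelial markers Lrrn4 at 92.3 CPM and Upk3b at 218 CPM. In Rosa26 2 the high values were Coro1a at 131 CPM and Irf9 at 41.3 CPM. In Rosa26 1 they were Cox8b at 7450 CPM and Epm2aip1 at 31.5 CPM. Rosa26 3 thus gave 10 of the 14.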

How the results depend on the processing

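The count of called genes, 1 with all 6 libraries, moved with the libraries used: 264 without Rosa26 1 and 2 (191 higher, 73 lower), 179 without Rosa26 3 and 4 (19 higher, 160 lower), 30 without the 3 libraries with heart RNA, 554 with only those 3, and 2 with heart RNA as a term. Both heart settings hold 1 dNdK library, assumed to vary as the controls do, and so do the fits without dNdK 1 or dNdK 2. It was 13 with DESeq2, and 0 for either strand alone and with all 13 libraries in 1 fit. Leaving out 1 library at a time gave 0 to 1. Ube2ql1 was no longer called without Rosa26 1, Rosa26 2, dNdK 1 or dNdK 2 (adjusted p of 0.0539 to 0.259), and the 1 gene called without dNdK 2 was another one. With a replicate block 163 genes were called (19 higher, 144 lower), but the replicate numbers share no stated animal, and the deviations of same-numbered libraries correlated at -0.35 and 0.18, so they were not taken as pairs. The tissue difference gave 6 calls with DESeq2 and 0 in edgeR.

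Well-counted genes without overlap, 706 higher and 434 lower, became 350 and 913 with library size alone, 1817 and 1833 without Rosa26 1 and 2, and 1647 and 943 without Rosa26 3 and 4. At a mean of 50 CPM or more the lower count was 185. Leaving out 1 library gave 839 to 1322 higher and 438 to 1001 lower. Smaller groups overlap less often by the rule itself. Counts with libraries left out are therefore not comparable with those over all libraries. Library size alone moved the median of all genes from -0.05 to -0.18.

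Of 124 named genes 116 never changed sign. Most named genes were chosen because their groups do not overlap, which largely fixes their sign when libraries are left out. The genes that reversed all had groups that overlap. Tnni3 reversed to -0.0496 with voom, -2.63 with the replicate block, -0.759 without heart libraries and -0.0841 without Rosa26 3 and 4, and ranged from -7.08 to 2.15 leaving out 1 library. Mybpc3 reversed to -1.03 with voom, -1.82 with the block and -0.125 without Rosa26 3 and 4, and ranged from -10.99 to 2.25. Ckm reversed to -1.67 with the block and -0.313 without Rosa26 3 and 4, and ranged from -4.80 to 1.63. S100b reversed to -0.125 with only heart libraries. Pmp22 reversed to -0.00414 with library size alone, -0.332 without Rosa26 1 and 2 and -0.165 without heart libraries, and ranged from -0.0973 to 0.349. Rrm1 reversed to 1.94e-05 with DESeq2 size factors, 0.000186 with DESeq2, 0.00678 with voom, 0.0592 on the second strand, 0.158 without Rosa26 1 and 2 and 0.114 without heart libraries, and ranged from -0.104 to 0.138. With the block and without Rosa26 3 and 4, Jag2 reversed to 0.0721 and 0.0822, and Hey1 to 0.0893 and 0.0856. The cause was not tested.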

Other observations

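Jag2, a Notch ligand, was at 16.7, 14.3, 51.9 and 64.6 CPM in Rosa26 1 to 4 and at 18.7 and 14.1 CPM in dNdK. Hey1, a Notch target, was at 14, 11, 35.5 and 38.5 CPM against 14.4 and 12.1 CPM. Both were high in Rosa26 3 and 4 alone. Id3, a target of BMP signalling, was at 160, 132, 529 and 291 CPM against 122 and 131 CPM. Hlf, a circadian output factor, was lower in dNdK without overlap, at 49.2, 74.5, 66.8 and 77.8 CPM against 39.7 and 23.9 CPM. Nfkb2, a subunit of NF-kB, was at 53.4, 69.1, 70.4 and 57.3 CPM against 32.0 and 38.9 CPM. In its list 17 of 18 tested genes had a lower estimate, against 54.2% of all genes tested, and the median was -1.05. Only 5 were well counted, at a median of -0.63. Of these, 1 did not overlap with dNdK lower (7.04% over all well-counted genes).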
